A study of Mus musculus with 2 samples.

Results

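MicroRNAs (miRNAs) of the miR-219 family and miR-338 were followed here through 4 hairpin genes, Mir338, Mir219a-2, Mir219a-1 and Mir219b, out of the 2202 miRNA genes counted. They were chosen by gene name in GENCODE M21, and each of the 4 had a row in both deposited tables. The data are 2 miRNA sequencing libraries of the left cerebral cortex from male B6CASTF1/J mice aged 4 days, which are F1 hybrids of the C57BL/6J and CAST/EiJ strains. They form 1 group, with no treatment named and no second condition. Total RNA was the source, with small RNAs under 30 nt selected. The libraries are labelled biological replicates 1 and 2 and are called library 1 and library 2 below. The labels number the males differently and yet give both the same donor identifier, so the spread between libraries may not be a spread between animals.

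A miRNA is cut from one or both arms of a hairpin RNA, and its seed, bases 2 to 8, pairs with target messenger RNAs. Oligodendrocytes, the cells that wrap axons in myelin, make miR-219 and miR-338 in large amounts once they leave the precursor state. In mice and fish both miRNAs promote that step by repressing factors that hold precursors back, among them Sox6 and Hes5, and miR-219 also targets the growth factor receptor Pdgfra. Most myelin of the mouse cortex forms later than the age sampled here, so these libraries give the level at an early stage. Mir338 lies in an intron of Aatk, a kinase gene that neurons express, and miR-338 has been described in neurons too. In bulk tissue, fewer cells of a type and less RNA per cell cannot be told apart.

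The mature sequences are shown first, because they decide which reads can be assigned to a gene. Capitals mark the seed, and the sequences are from RefSeq on GRCm38.p6, where all 6 gene names looked up (the members, Mir219c and Mir3065) were found.
miR-219a-5p: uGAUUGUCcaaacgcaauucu
miR-219a-1-3p: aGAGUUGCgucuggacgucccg
miR-219b-5p: aGAUGUCCagccacaauucucg
miR-219b-3p: aGAAUUGCguuuggacaaucagu
miR-338-3p: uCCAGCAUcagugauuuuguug
miR-338-5p: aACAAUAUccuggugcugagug
miR-3065-5p: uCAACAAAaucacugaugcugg
No 2 of these arms had the same seed, and 0 other mature mouse miRNAs in the table had any of them. The names miR-219a and miR-219b therefore do not stand for a shared seed. The miR-219a-5p seed GAUUGUC belongs to the arm known for oligodendrocyte maturation, as does the miR-338-3p seed CCAGCAU.

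The miR-219a-5p sequence was found in 2 hairpins, those of Mir219a-1 and Mir219a-2, among 1005 hairpins in the table. The sequences of miR-338-3p and miR-338-5p were each found in 1 hairpin, that of Mir338. The hairpins below show the difference, with listed mature arms in capitals.
Mir219a-2: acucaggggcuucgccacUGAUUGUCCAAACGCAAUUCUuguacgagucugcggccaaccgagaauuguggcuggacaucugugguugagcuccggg
Mir219a-1: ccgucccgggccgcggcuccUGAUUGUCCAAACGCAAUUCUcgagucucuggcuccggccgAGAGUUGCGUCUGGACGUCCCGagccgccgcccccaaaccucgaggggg
Mir338: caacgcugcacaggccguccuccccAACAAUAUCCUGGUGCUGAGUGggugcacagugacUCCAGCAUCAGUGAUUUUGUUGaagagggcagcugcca
The hairpins of Mir219a-1 and Mir219a-2 were identical at 72 of 114 aligned positions (63.2%), and their longest shared run was 22 nt, which holds all 21 nt of miR-219a-5p. In the count layout of these tables a read that is placed at several sites is given to no gene. A full-length miR-219a-5p read matches both hairpins, so the counts of Mir219a-1 and Mir219a-2 can miss the arm most studied in oligodendrocytes. Their counts are therefore uncertain, and how many such reads there were was not tested. The longest run that Mir338 shares with another hairpin was 13 nt, and of its 79 windows of 20 nt, 0 were found in another hairpin. Of 1018 counted genes with a mature sequence in the table, 93 had one that was also found in another hairpin.

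The members sit at 3 loci, each with a miRNA gene on both strands. Mir219a-2 (ENSMUSG00000065485.1) lies on chromosome 2, 29845631 to 29845727 on the minus strand of mm10. It is between genes, 629 bp from Urm1. Mir219b (ENSMUSG00000105010.1) lies inside it on the plus strand, 29845647 to 29845711. Its 65 nt are the exact reverse complement of positions 17 to 81 of the Mir219a-2 hairpin. Mir219a-1 (ENSMUSG00000065555.1) lies on chromosome 17, 34024983 to 34025092 on the minus strand, 303 bp from Ring1, a Polycomb gene. It overlaps an exon of the long noncoding RNA Gm26940 on the same strand, and Mir219c on the other. Mir338 (ENSMUSG00000065600.1) lies on chromosome 11, 120014765 to 120014862, on the same strand as Aatk. Mir3065 overlaps it on the plus strand.

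**Figure D1:**
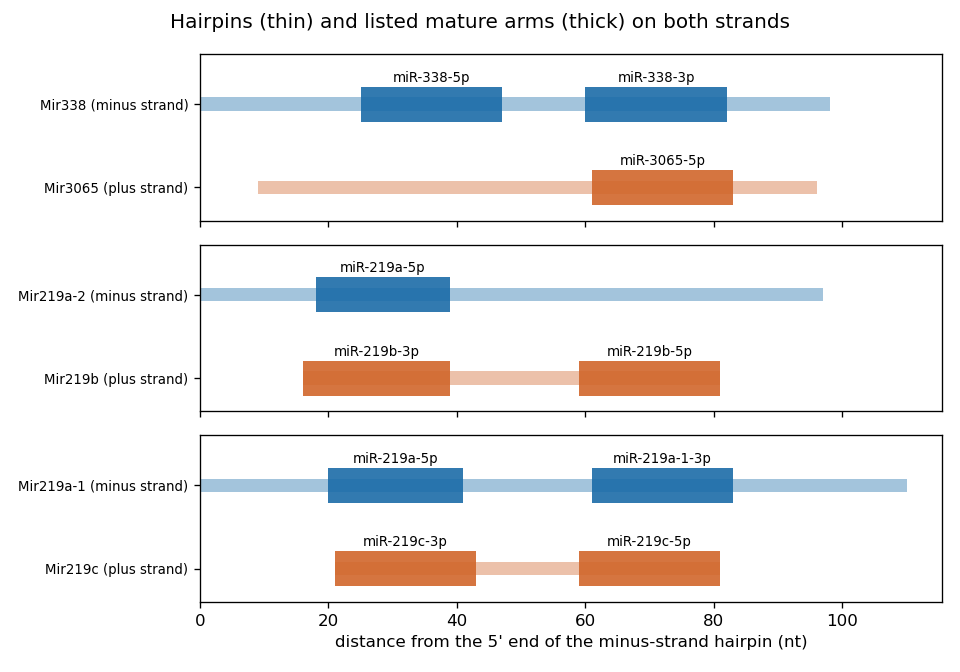
Hairpins (thin bars) and mature arms listed in RefSeq (thick bars) at the 3 loci, minus-strand genes above plus-strand genes, by distance in nt from the 5' end of the minus-strand hairpin. At each locus the plus-strand hairpin lies within the minus-strand one, and miR-3065-5p lies opposite miR-338-3p.

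Library 1 held 2999032 own-strand counts and library 2 held 3577964, which were 29.9% and 52.6% of their reads. A further 46.1% and 39.8% were placed at several sites. By a fixed limit of 3 counts, a count of 0 is taken to allow up to 1.00 CPM (counts scaled to the library's own-strand total) in library 1. In library 2 this limit is 0.838 CPM. The two-sided interval of 0 counts reaches slightly higher, to 1.23 CPM in library 1 and 1.03 CPM in library 2. Intervals are exact binomial 95% intervals and cover counting error only. The libraries stood apart in markers of other tissues, and the gene named for each list is the one with the highest mean CPM of both libraries. Skeletal muscle miRNAs (Mir206) took 0.00730% of counts in library 1 and 15.7% in library 2, with 5 of 8 genes and 1 of 8 at 0. Hox cluster miRNAs (Mir196b) took 0.0228% and 1.91%, with 1 of 5 genes and 0 of 5 at 0. Neuron miRNAs (Mir128-1) took 4.23% and 0.131%, with 0 of 9 genes and 3 of 9 at 0. Those 3 genes had only 8, 3 and 1 counts in library 1, so their zeros in library 2 say little. The levels in library 2 thus come from a library whose defining markers go against a cortex label, and each level is given per library before any mean of both. Shares of the vascular list (Mir126a) were 1.71% and 4.70%, and those of the astrocyte and glia list (Mir23a) 1.67% and 5.09%. The astrocyte and glia genes went both ways by the exact binomial test described below. With total counts 4 of 8 were higher in library 1 and 4 lower, beside 63.7% and 26.3% of all genes tested. With TMM scaling 1 was higher and 5 lower, beside 39.3% and 40.6%. Microglia and leukocyte miRNAs (Mir146) took 0.117% and 0.0740%, and red blood cell miRNAs (Mir486) 0.00453% and 0.0153%. The microglia and leukocyte genes also went both ways. By the same test 2 of 5 were higher in library 1 and 3 lower with total counts, and 1 was higher and 4 lower with TMM. The part of these markers in the results below was not tested.

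Of the 4 genes, Mir338 held most counts in each library and had nearly the same share in both. Mir219a-2 was present in library 1 and nearly absent from library 2. Mir219a-1 was low in both libraries, and Mir219b was at or below the detection limit. Together the 4 genes took 0.0616% of counts in library 1 (interval 0.0588 to 0.0644) and 0.0454% in library 2 (0.0432 to 0.0476). Each read counts a whole small RNA, so CPM was not divided by hairpin length.

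Mir338, the hairpin of miR-338-3p and miR-338-5p shown above, had 1491 counts in library 1 and 1610 in library 2. That is 497 CPM (interval 472 to 523) and 450.0 CPM (428 to 473), a mean of 474 ± 33.4 CPM (SD, n = 2). It was neither rare nor abundant, and ranked 125 of 693 genes with a count in library 1 and 118 of 604 in library 2. In library 1 its neighbours in rank were Mir455 (499.8 CPM) above it and Mir668 (477 CPM) below it. In library 2 they were Mir499 (454 CPM), a muscle miRNA, and Mir377 (449 CPM). All 4 neighbours had intervals that overlap that of Mir338, so its exact place is not resolved.

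Mir219a-2, one of the hairpins that hold miR-219a-5p, had 314 counts in library 1 and 3 in library 2. Its level was 105 CPM (interval 93.4 to 117) in library 1 and 0.838 CPM (0.173 to 2.45) in library 2, a mean of 52.8 ± 73.4 CPM (SD, n = 2). The SD exceeds the mean, so the mean describes neither library. It ranked 204 in library 1, between Mir873a (315 counts) and Mir7-1 (300 counts), and 390 in library 2, among other genes with 3 counts. Full-length miR-219a-5p reads match the hairpins of Mir219a-1 and Mir219a-2, so these levels need not be those of that arm. No 3p arm of Mir219a-2 was listed, and which part of the hairpin the counts came from was not tested.

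Mir219a-1, the other hairpin with miR-219a-5p, had 39 counts in library 1 and 10 in library 2. Its level was 13.0 CPM (interval 9.25 to 17.8) and 2.79 CPM (1.34 to 5.14), a mean of 7.90 ± 7.22 CPM (SD, n = 2). It ranked 305 in library 1 and 312 in library 2, so its place among detected genes was similar while its share was lower in library 2. In library 1 its neighbours in rank were Mir196b (40 counts) and Mir3076 (39). In library 2 they were Mir19a and Mir378d, among other genes with 10 counts. Neighbours in rank are picked for like counts, so their likeness to Mir219a-1 is not a result.

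Mir219b, made from the strand opposite to Mir219a-2, had 2 counts in library 1 and 0 in library 2. That is 0.667 CPM (interval 0.0808 to 2.41) in library 1 and at most 0.838 CPM in library 2 by the limit of 3 counts. In library 1 it shared its count with many genes, among them Mir201 and Mir2861. Mir219c, on the strand opposite to Mir219a-1, had 0 counts in both libraries. No expression of Mir219b or Mir219c was detectable above the limit of 3 counts at this depth.

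**Figure D2:**
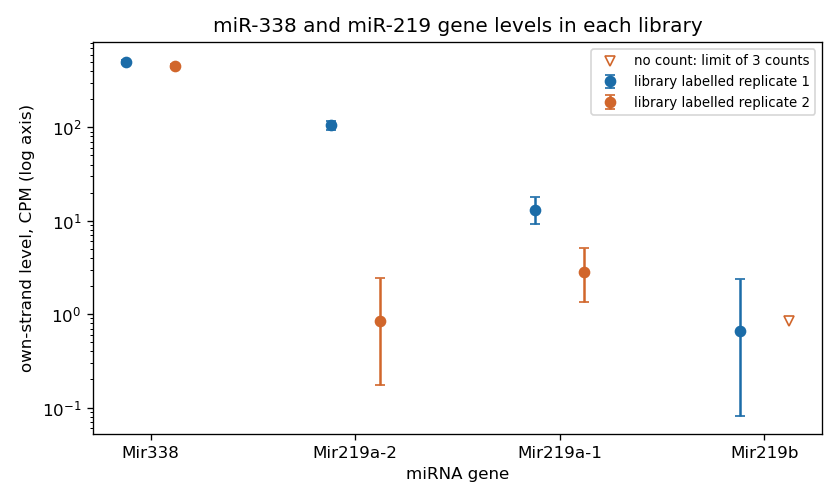
Own-strand level of each gene in CPM (log axis) in each library, with exact 95% binomial intervals, library 1 left of library 2, and an open triangle at the limit of 3 counts where no count was seen. Mir338 is at 497 and 450.0 CPM, while Mir219a-2 is at 105 and 0.838 CPM.

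The order of levels was Mir338, Mir219a-2, Mir219a-1, Mir219b in library 1, where no neighbouring intervals overlap. In library 2 the order was Mir338, Mir219a-1, Mir219a-2, Mir219b. Of the steps between neighbours there, only that from Mir338 to Mir219a-1 exceeds counting error. The intervals of Mir219a-1 and Mir219a-2 overlap, and the limit for Mir219b lies within that of Mir219a-2. The interval of Mir219a-1 (1.34 to 5.14 CPM) does lie above that of Mir219b, whose upper end is 1.03 CPM. Mir338 held 80.8% of the counts of the 4 genes in library 1 and 99.2% in library 2.

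**Figure D3:**
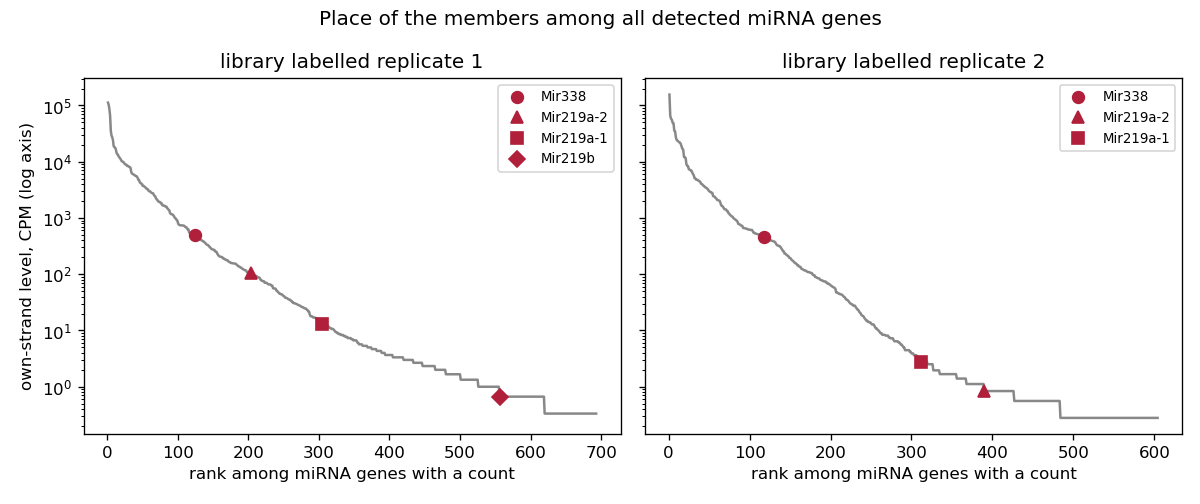
Level in CPM (log axis) against rank for all miRNA genes with a count, 693 in library 1 and 604 in library 2, with the members marked. Mir338 keeps a similar place in both libraries (ranks 125 and 118), and Mir219a-2 stands at rank 204 in library 1 and 390 in library 2.

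Ratios between members within a library do not depend on how the libraries are scaled. Mir219a-2 made up 17.4% of the summed counts of Mir219a-2 and Mir338 in library 1 (interval 15.7 to 19.2) and 0.186% in library 2 (0.0384 to 0.543). The intervals lie far apart, and the ratio of Mir219a-2 to Mir338 was 113-fold higher in library 1. Of the counts of the Mir219a pair, Mir219a-2 held 89.0% in library 1 (interval 85.2 to 92.0) and 23.1% in library 2 (5.04 to 53.8). The Mir219a-2 locus thus led the pair in library 1, while in library 2 the leading locus is not resolved from 13 counts in all. Mir219a-1 made up 2.55% of the counts of Mir219a-1 and Mir338 in library 1 (1.82 to 3.47) and 0.617% in library 2 (0.296 to 1.13). These shares cover reads with a single site only, so miR-219a-5p reads that match both loci are outside them.

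A comparison of library 1 with library 2 asks how reproducible the member levels are within the group. Each gene was put through a two-sided exact binomial test, scaled by TMM and adjusted by Benjamini-Hochberg over 463 genes with at least 10 counts summed, which sets these 2 libraries against counting error and has no replicate check. It called 79.9% of all genes tested, 39.3% as higher and 40.6% as lower in library 1. Of the 4 members 3 were tested, of which 1 was higher, 1 lower and 1 did not pass, and Mir219b had too few counts. With such a background a call says little about a member, and its size and place among all genes say more. By a rule of at least 4-fold with TMM, 1 of the 3 tested members was apart, against 51.4% of all genes tested.

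Mir219a-2 was higher in library 1, by 47.2-fold with TMM (log2 5.56, interval 4.00 to 7.85, adjusted p = 9.16e-46 by the exact binomial test). With total counts the ratio was 125-fold (log2 6.96, interval 5.40 to 9.25). The interval is wide because library 2 held 3 counts. Of the 463 genes, 43 (9.29%) had a larger ratio in favour of library 1. In direction it went with the neuron list, of which all 6 tested genes were called higher in library 1, beside 39.3% of all genes tested. The genes nearest to it in log2 ratio, of 295 with at least 100 counts summed, were Mir153 (205 and 2 counts, log2 5.53), Mir488 (912 and 7 counts, log2 5.88) and Mir135b (1328 and 16 counts, log2 5.23). With 2 libraries this likeness is that of a single ratio.

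For Mir338 the direction depended on the scaling. With TMM it was lower in library 1 (log2 -1.26, interval -1.36 to -1.16, adjusted p = 2.22e-127 by the exact binomial test), a 2.39-fold difference. With total counts it was 1.10-fold higher in library 1 (log2 0.14, interval 0.04 to 0.25, adjusted p = 0.00696 by the same test). Over all 463 genes the median log2 ratio was 0.27 (TMM) or 1.67 (total counts), so relative to the median gene Mir338 was lower in library 1. Scaling shifts all log2 ratios alike, so this place is the same under both by construction and does not settle the direction. A larger ratio in favour of library 1 was seen for 320 genes (69.1%). The nearest genes in log2 ratio were Mir501 (3666 and 4030 counts, log2 -1.29), Mir382 (40828 and 43287, log2 -1.23) and Mir3072 (264 and 279, log2 -1.23). Mir382 belongs to the imprinted Dlk1-Dio3 region.

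Mir219a-1 did not pass with TMM (log2 0.81, interval -0.21 to 1.98, adjusted p = 0.145 by the exact binomial test). With total counts it was 4.65-fold higher in library 1 (log2 2.22, interval 1.19 to 3.39, adjusted p = 2.69e-06 by the same test). It lay near the middle of all genes, 192 of which (41.5%) had a larger ratio. With total counts, 3 of 3 tested members were higher in library 1 and 2 were at least 4-fold apart, where the test called 90.1% of all genes, 63.7% as higher and 26.3% as lower, and 59.6% were at least 4-fold apart.

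**Figure D4:**
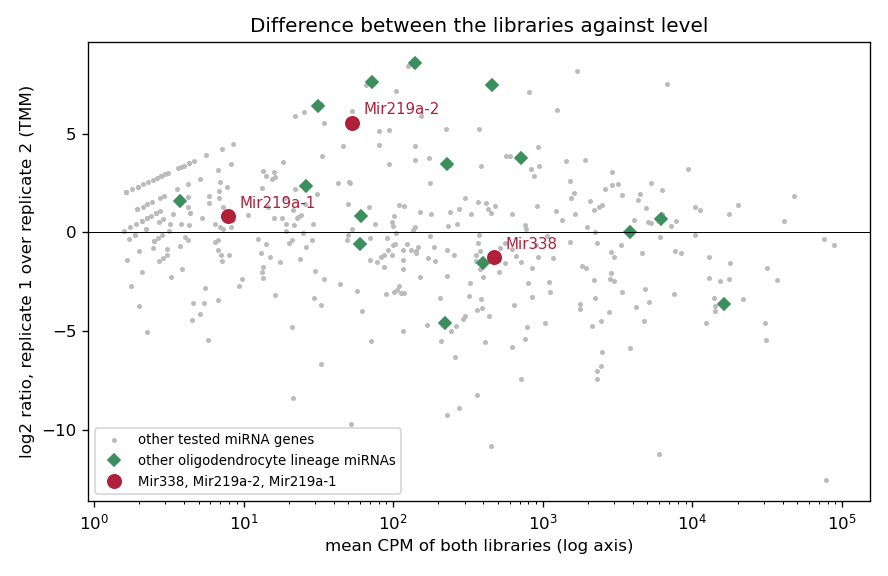
Log2 ratio of library 1 over library 2 (TMM) against mean CPM (log axis) for 428 tested genes, with 35 others not drawn because a library had no count. Mir219a-2 lies at 5.56, Mir219a-1 at 0.81 and Mir338 at -1.26, and the other oligodendrocyte lineage miRNAs (diamonds) spread over both directions.

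Other miRNAs with a described role in oligodendrocyte lineage cells did not move as a block. Of 16 listed genes 15 were tested, and 9 were higher in library 1, 4 lower and 2 did not pass (exact binomial test with TMM, background 39.3% and 40.6%). The median log2 ratio was 1.59, beside 0.27 over all genes tested. In the list, 5 genes also stand among the neuron, glia or vascular markers. Mir23a, which represses lamin B1 in oligodendrocytes, had the highest mean CPM of the list, with 17170 and 96042 counts, 5725 and 26843 CPM, and was lower in library 1 (log2 -3.63). Mir17, of the cluster that drives precursor proliferation, had 30006 and 8526 counts, above Mir23a in library 1, and was higher in library 1 (log2 0.67). Mir125a had 16774 and 7464 counts and did not pass (log2 0.02, adjusted p = 0.374). Mir138-1, of the family that rises with miR-219 and miR-338 as precursors differentiate, had 4183 and 141 counts and was higher in library 1 (log2 3.74), and its copy Mir138-2 makes its count uncertain. All 4 had more counts than Mir338 in library 1, and Mir138-1 had fewer in library 2.

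The 3 count columns show how strand decides these values. Column 3, the gene's own strand, gave the counts above. Column 2, which counts either strand, was 0 for all 4 members in both libraries. Column 4, the opposite strand, was the mirror of the partner gene. Mir219b had 314 opposite-strand counts in library 1 and 3 in library 2, the own-strand counts of Mir219a-2. Mir219a-2 had 2 and 0, the own-strand counts of Mir219b. Mir338 had 0 opposite-strand counts in library 1 and 6 in library 2, the own-strand counts of Mir3065, whose mature miR-3065-5p is the reverse complement of miR-338-3p at 21 of 23 aligned positions. Mir219a-1 had 0 in both libraries. In unstranded counting a read that falls on overlapping genes is set aside as ambiguous, so a table built from column 2 would list these 4 genes at 0. Of 26 genes with at least 100 own-strand counts and a miRNA gene on the other strand, 22 were at 0 in column 2, against 0 of 269 other genes.

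**Figure D5:**
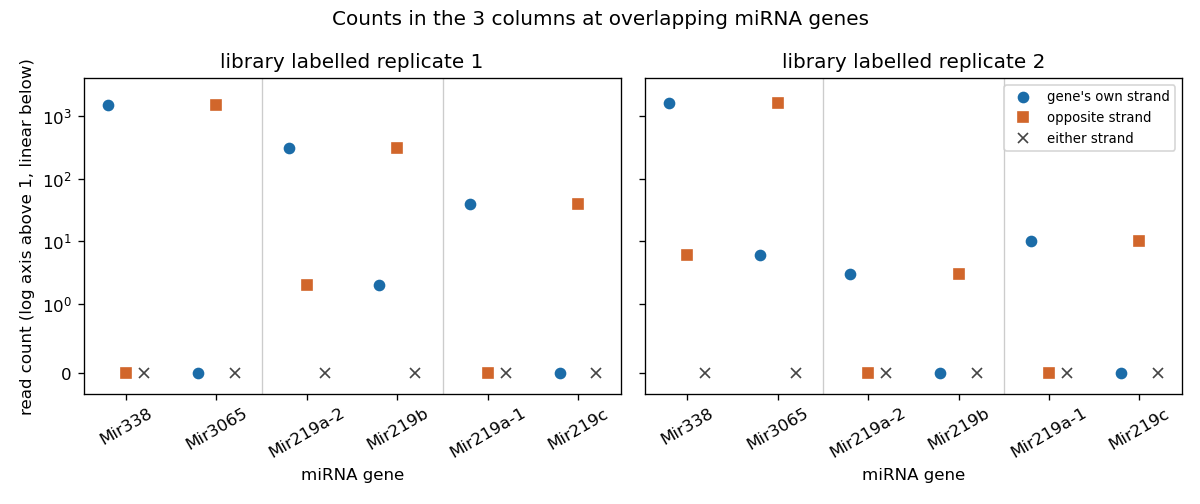
Read counts at each pair of overlapping genes in the own-strand, opposite-strand and either-strand columns, for library 1 (left) and library 2 (right), on an axis that is logarithmic above 1 and linear below. Own-strand counts of the minus-strand genes (1491, 314 and 39 in library 1) reappear as opposite-strand counts of their partners, and the either-strand column is at 0 throughout.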

How the data were processed

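The deposited tables hold raw read counts per miRNA gene, made from 1 library each. Per the text files deposited alongside, they use mm10 and GENCODE M21. Which aligner and counter the authors ran is not given in the sources used here. Judged by the 4 leading entries and the 3 count columns, the layout is that of STAR gene counts. Entries without a gene stayed out of library sizes and tests, and made up 18.4%, 46.1% and 5.55% of reads in library 1 and 6.11%, 39.8% and 1.47% in library 2 (unplaced, several sites, outside miRNA genes). Counts are per hairpin, so arms are not separated.

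Own-strand counts were scaled to CPM. Genes with at least 10 counts summed were compared between libraries with a two-sided exact binomial test, in which the null share was scaled by TMM (edgeR factors 1.63 and 0.615). P-values were adjusted by Benjamini-Hochberg (threshold 0.05), and ratios carry no prior. Log2 ratios are library 1 over library 2. With 1 library per arm no quasi-likelihood test was run. The test was checked on simulated data that held counting error alone and no TMM scaling. That check says nothing of variation between animals or tissues. Alternatives were total counts, DESeq2 size factors, the unstranded column, other count minimums, a negative binomial test, a prior, the removal of abundant genes and each library alone. Hairpin alignments were global. Listed names Mir7a-1, Mir7a-2 and Mir146a were matched to Mir7-1, Mir7-2 and Mir146 through RefSeq synonyms, and Mir142hg has no row.

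Members, lists and tests were chosen with earlier results of these data known. Named genes were the members, overlapping miRNA genes, rank neighbours, the 3 nearest in ratio to members with at least 100 counts, the 4 most abundant of the lineage list and the top gene of each marker list. Genes in the other observations were chosen after their values were seen. Versions were Python 3.11.15 with scipy 1.17.1, pandas 2.3.3, Biopython 1.88 and matplotlib 3.10.9, and R 4.3.3 with DESeq2 1.42.0 and edgeR 4.0.16.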

Additional observations from a re-analysis of the deposited data

Results flagged for a closer look

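The column of reads on the opposite strand lies outside the own-strand measurement, and at the members it held counts above the 3 that a count of 0 allows. Mir219b had 314 opposite-strand counts in library 1, equal to the own-strand count of Mir219a-2. Mir338 had 6 in library 2, equal to the own-strand count of Mir3065, which had 0 in library 1.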

How the results depend on the processing

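Among genes differing between the libraries, 370 passed with TMM (182 higher and 188 lower in library 1) and 280 to 417 under the alternatives. With total counts the split was 295 higher and 122 lower, and higher calls made up 70.7% in place of 49.2%. For the member ratios, other count minimums and the negative binomial test change only the adjusted p, so the direction is fixed there. The prior changes only the ratio, so its call is that of TMM. The ratio of Mir219a-2 kept its direction and its call under all 7 alternatives that gave a value (log2 4.79 to 6.96, largest adjusted p 6.10e-28 by the exact tests). The Mir338 ratio reversed to 0.14 with total counts and kept its direction and call under the other 6. Mir219a-1 passed with total counts (log2 2.22) and under none of the other 5, among them DESeq2 size factors (log2 0.96, adjusted p = 0.0831 by the exact binomial test). These changes follow from the scaling. Members at least 4-fold apart numbered 2 with total counts and 0 in the unstranded column, where no member ratio could be given. With each library alone, the level was 450.0 to 497 CPM for Mir338, 0.838 to 105 CPM for Mir219a-2, 2.79 to 13.0 CPM for Mir219a-1 and 0 to 0.667 CPM for Mir219b. The mean level of Mir338 moved from 474 CPM to 519 CPM with TMM library sizes, 569 CPM without Mirlet7i and Mir206 in the totals, 226 CPM with reads placed at several sites in the totals. With those reads in the totals the means were 20.8 CPM for Mir219a-2, 3.35 CPM for Mir219a-1 and 0.131 CPM for Mir219b, and with TMM library sizes 32.9, 6.27 and 0.205 CPM, against 52.8, 7.90 and 0.333 CPM. In the unstranded column all 4 means were 0. At 100 counts the lineage list kept 9 higher and 4 lower of 14 tested, beside 122 higher and 158 lower of all 295 genes tested. With total counts it had 12 higher and 3 lower of 15 tested, beside 63.7% and 26.3% of all genes tested. No paired analysis was possible because there is 1 group. Depth limits Mir219b in both libraries and the Mir219a genes in library 2.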

Other observations

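Within the lineage list Mir9-3, Mir7-2, Mir7b and Mir9-1 were furthest apart between the libraries among the tested genes. Mir9-1, Mir9-2 and Mir9-3 are copies, as are Mir7-1 and Mir7-2, so their counts are uncertain, as for Mir138-1. Mir7b had 2743 counts in library 1 and 7 in library 2 (log2 7.47 with TMM), and Mir7-2 had 435 and 1, while Mir7-1, whose hairpin holds a miRNA of the same family, had 300 and 75 (log2 0.85). Mir9-3 had 837 and 1 counts and Mir9-1 had 187 and 1, while Mir9-2, with 7 and 0, had too few counts for the test. Mir27a lay at the other end with 131 and 1423 counts (log2 -4.59). Mir145a, with 1126 and 1491 counts, lay near Mir338 in level, at 375 CPM in library 1 and 417 CPM in library 2.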
